A study of Mus musculus with 6 samples.

Results

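Keratins are the proteins of the intermediate filaments of epithelial cells, and 48 genes of this family were followed among 30142 genes measured in cancer stem cells of mouse skin carcinomas. The members were the array features whose platform annotation names 1 gene, with a symbol of Krt, a number and at most 1 letter. Each of the 48 genes had 1 feature, 28 of them type I and 20 type II keratins. A feature shared by Krt6a and Krt6b and another shared by Krt81 and Krt83 carry several symbols and were left out. Krt90, which the annotation gives under an older symbol, was left out as well, and genes of keratin-associated proteins were not counted. The cells came from squamous cell carcinomas of Sfrp1-/- mice (Sfrp1_KO, 3 arrays) and of wild-type mice (WT, 3 arrays). Sfrp1 encodes a secreted antagonist of Wnt signalling. Mice of both genotypes had received the mutagen DMBA on postnatal days 23, 25 and 27, and then the tumour promoter TPA 2 times a week for up to 30 to 40 weeks. Cells without lineage markers that carried Epcam, α6 integrin and CD34 were sorted, and their RNA was hybridised to Affymetrix MTA 1.0 arrays. The labels give neither age at sampling, nor strain, nor the deleted part of Sfrp1. Nor do they state whether each array came from its own animal, so the spread behind the p-values may be technical in part.

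A keratin filament is built from pairs of a type I (acidic) and a type II (basic) protein, and which pair a cell makes depends on its epithelium and its state. Basal cells of the epidermis make Krt5 with Krt14, and cells that leave the basal layer make Krt1 with Krt10. Wounded, hyperproliferative and cancerous epidermis adds Krt6, Krt16 and Krt17, while simple, single-layered epithelia make Krt8 with Krt18, and also Krt7, Krt19 and Krt20. Hair follicles use a further set in the inner root sheath and in the hair shaft. Desmosomes and hemidesmosomes anchor the filaments to the cell membrane.

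All values are probe set signals in deposited log2 units. Values reached 19.93, more than a scanner of 16 bits can give, and the origin of that scale was not given in the sources used here. A difference of 1 unit therefore need not be a doubling. Array medians were 4.35 to 4.46 in Sfrp1_KO and 4.32 to 4.45 in WT. The background level of an array, its highest of 23 background probe sets, was 5.04 to 5.10 in Sfrp1_KO and 4.82 to 5.09 in WT. With 3 arrays per genotype the precision is limited. A difference is Sfrp1_KO minus WT with its moderated standard error (SE), and a gene was called when limma, fitted over all 30142 genes, gave an adjusted p under 0.05. Where every array of a genotype was at or under background, its level there was not measured. A named gene with a brighter mean in the other genotype then has its difference also as "at least", that mean minus the background level of the dim arrays. Sfrp1 itself stood at 5.09, 5.11 and 5.15 on the Sfrp1_KO arrays, against 5.71, 5.48 and 6.07 on the WT arrays (difference -0.64, SE 0.15, limma adjusted p = 0.0969). It was lower on each Sfrp1_KO array and did not pass the test, and a probe set outside the deleted part would not check the genotype.

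Epcam, a marker of the labelled sort, was at or under background on 2 Sfrp1_KO arrays. Epcam stood at 4.99, 4.89 and 5.22 on the Sfrp1_KO arrays, against 7.43, 8.69 and 6.65 on the WT arrays, and was above background on 1 Sfrp1_KO array and on all 3 WT arrays (-2.56, SE 0.48, limma adjusted p = 0.0455). Itga6, the α6 integrin gene, was lower but well above background, at 7.56, 7.82 and 7.47 in Sfrp1_KO, against 10.22, 9.30 and 9.0 in WT (-1.89, SE 0.31, limma adjusted p = 0.0292). Cd34 was bright on every array and did not pass (1.57, SE 0.34, limma adjusted p = 0.0714).

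The keratin genes lie in 2 clusters, type I on chromosome 11 and type II on chromosome 15, where Krt18 is the exception as a type I gene beside Krt8. The RefSeq promoter table (GRCm38.p6) held 35 of the 48 genes, and for 28 the listed start was the 5′ end of the RefSeq gene. The 250 bases before the start are shown for 5 keratins that stand for the patterns described below, Krt5 and Krt13, which fell, Krt20 and Krt8, which stood higher on the Sfrp1_KO arrays, and Krt18, the partner of Krt8. They are chr15:101712906-101713155 (minus strand) for Krt5, chr11:100121567-100121816 (minus strand) for Krt13, chr11:99438154-99438403 (minus strand) for Krt20, chr15:102004343-102004592 (minus strand) for Krt8 and chr15:102027966-102028215 (plus strand) for Krt18. Capitals mark the letters ATAAA on the transcript strand, searched from 45 to 16 bases before the start, and, on both strands of the whole stretch, GCCNNNGGC (AP-2), TGANTCA (AP-1) and GGGCGG (GC box).
Krt5: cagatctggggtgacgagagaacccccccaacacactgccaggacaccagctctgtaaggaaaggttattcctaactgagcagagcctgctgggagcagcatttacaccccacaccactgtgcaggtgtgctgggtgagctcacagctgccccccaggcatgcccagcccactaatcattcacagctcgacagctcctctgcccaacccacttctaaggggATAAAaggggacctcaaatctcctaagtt
Krt13: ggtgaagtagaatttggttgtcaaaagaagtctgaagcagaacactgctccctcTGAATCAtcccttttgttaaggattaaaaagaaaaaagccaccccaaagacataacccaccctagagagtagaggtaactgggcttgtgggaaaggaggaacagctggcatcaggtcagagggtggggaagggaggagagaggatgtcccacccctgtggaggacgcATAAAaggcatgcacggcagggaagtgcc
Krt20: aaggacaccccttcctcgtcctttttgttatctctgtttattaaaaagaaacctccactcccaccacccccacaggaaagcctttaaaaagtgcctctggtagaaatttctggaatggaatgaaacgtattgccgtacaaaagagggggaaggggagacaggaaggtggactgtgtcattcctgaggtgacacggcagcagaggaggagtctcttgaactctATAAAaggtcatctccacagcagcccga
Krt8: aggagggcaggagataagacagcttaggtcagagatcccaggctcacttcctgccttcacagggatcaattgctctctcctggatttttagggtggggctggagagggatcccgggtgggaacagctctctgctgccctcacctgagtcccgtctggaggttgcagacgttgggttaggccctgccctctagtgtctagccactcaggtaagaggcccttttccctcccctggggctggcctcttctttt
Krt18: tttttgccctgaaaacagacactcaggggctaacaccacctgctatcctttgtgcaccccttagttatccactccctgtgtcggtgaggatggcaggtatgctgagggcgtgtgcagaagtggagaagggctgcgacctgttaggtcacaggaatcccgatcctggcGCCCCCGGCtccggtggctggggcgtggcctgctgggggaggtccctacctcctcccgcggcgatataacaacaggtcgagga

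The letters ATAAA, part of a TATA box, began 29 bases before the start in Krt5 and in Krt13 and 28 bases before it in Krt20. They were not in that window of Krt8 or Krt18, though the letters ATATAA, which were not searched for, lie in that of Krt18. Among the 28 keratin starts 17 (60.7%) had the letters ATAAA, against 5.17% of all 32851 promoters of the table. Unlike the 28, all promoters of the table were counted without a check that the start was the 5′ end of the gene, so the shares come from unlike sets. The AP-2 letters were in 4 of the 28, Krt18 among them, and in 13.7% of all promoters. The AP-1 letters were in Krt13 alone among the 28, and in 6.75% of all promoters. The GC box was in 2 of the 28, Krt7 and Krt75, and in 32.7% of all promoters. These letters were looked for after some of the sequences had been read, and a match describes the sequence only. Krt5 and Krt13, which fell, and Krt20, which stood higher, share the ATAAA letters at nearly the same place.

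Of the 48 keratins 5 were lower in Sfrp1_KO and none was higher by the limma test over all genes, where 3.28% of the 30142 genes were called, 1.45% lower and 1.83% higher. The keratins called were Krt5, Krt14, Krt16, Krt17 and Krt13, which is 10.4% of the family. At an unadjusted p under 0.05 there were 15 lower and 2 higher keratins, where 14.4% of all genes passed, 7.54% lower and 6.84% higher. By type, 4 of 28 type I and 1 of 20 type II keratins were called. The Sfrp1_KO arrays did not overlap the WT arrays for 19 keratins (39.6%), 17 lower and 2 higher, and for 19.9% of all genes, 10.8% lower and 9.1% higher. The median difference over the 48 keratins was -0.09, beside -0.01 over all genes, and 28 of the 48 were at or under background on every array.

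**Figure D1:**
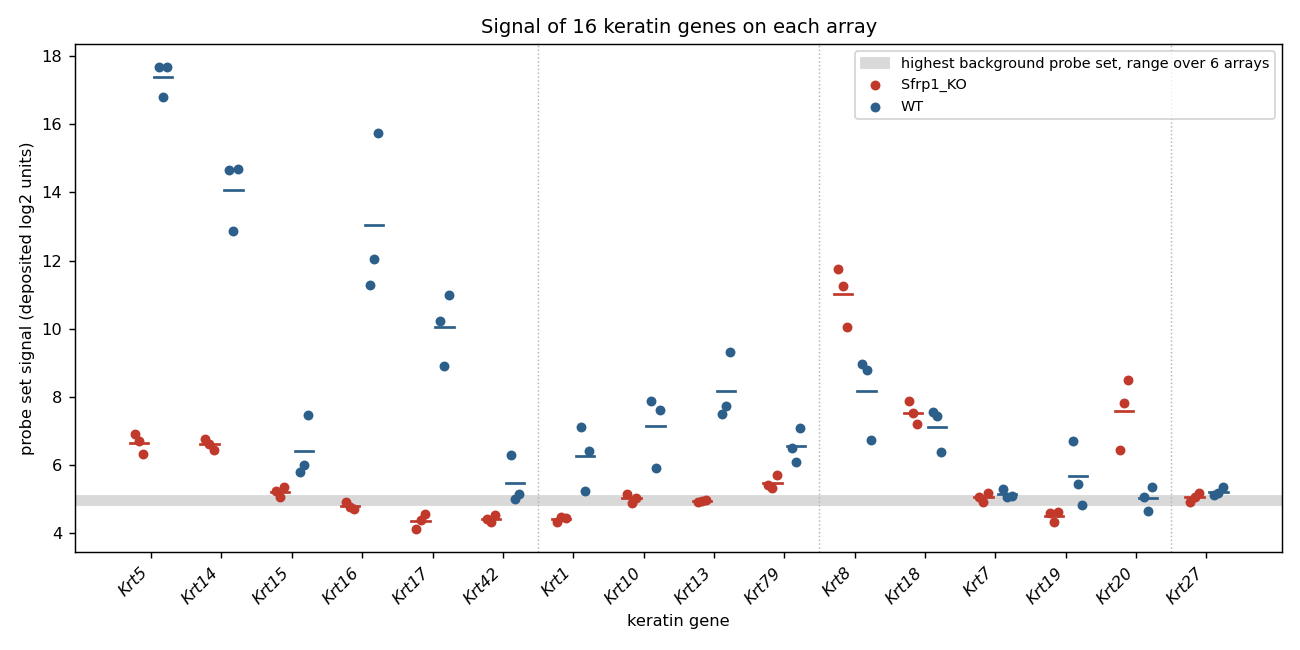
Signal of 16 keratin genes (vertical axis, deposited log2 units) on each of 3 Sfrp1_KO and 3 WT arrays; points are arrays, short lines are means, the grey band is the range of the background level. From left to right, dotted lines part basal and stress keratins, suprabasal and mucosal keratins, keratins of simple epithelia and the root sheath gene Krt27. The Sfrp1_KO points of Krt5 and Krt14 lie between 6.32 and 6.91, far under their WT points, while those of Krt8 and Krt20 lie above theirs.

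Both keratins of the basal pair fell. Krt5, the type II keratin of basal epidermal cells, stood at 6.91, 6.71 and 6.32 on the Sfrp1_KO arrays, against 17.67, 16.81 and 17.68 on the WT arrays. No array came near the other genotype, with means of 6.64 ± 0.30 in Sfrp1_KO and 17.39 ± 0.50 in WT (SD, n = 3 each). Krt5 fell by 10.74 (SE 0.27, limma adjusted p = 0.000127), the lowest difference among all 30142 genes. Fewer cells of a type and less RNA per cell cannot be told apart in these bulk samples. Krt14, its type I partner, stood at 6.78, 6.63 and 6.45 in Sfrp1_KO, against 14.66, 12.87 and 14.68 in WT. The groups were again far apart, with WT replicate 2 the lowest of the WT arrays for both genes, and the means were 6.62 ± 0.16 in Sfrp1_KO and 14.07 ± 1.04 in WT (SD, n = 3 each). The difference was -7.45 (SE 0.48, limma adjusted p = 0.00190). Both genes stayed above background on all 3 Sfrp1_KO arrays. Krt15, a type I keratin of basal and hair follicle bulge cells, stood at 5.24, 5.06 and 5.35 in Sfrp1_KO, against 5.80, 5.99 and 7.47 in WT. Its groups did not overlap, but WT replicate 3 lay well above the other WT arrays and the difference of -1.21 (SE 0.43, limma adjusted p = 0.257) did not pass.

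Krt17 and Krt16, which wounded epidermis switches on, were under background in Sfrp1_KO. Krt16 stood at 4.92, 4.77 and 4.70 on the Sfrp1_KO arrays, against 11.28, 12.06 and 15.76 on the WT arrays. The Sfrp1_KO arrays were all under background (4.79 ± 0.11), while the WT arrays (13.03 ± 2.39) had the widest spread of the family (SD, n = 3 each). Krt16 fell by 8.24 (SE 1.09, limma adjusted p = 0.0158), or at least 7.96. Krt17 stood at 4.12, 4.40 and 4.57 in Sfrp1_KO, against 10.22, 8.92 and 11 in WT, a difference of -5.68 (SE 0.49, limma adjusted p = 0.00441), or at least 4.97 lower. Both fell, with no overlap between genotypes. Krt42, a close relative of Krt17 that is a pseudogene in humans, stood at 4.41, 4.32 and 4.54 in Sfrp1_KO, against 6.30, 5.0 and 5.16 in WT. It did not overlap either, and did not pass (-1.06, SE 0.33, at least 0.42 lower, limma adjusted p = 0.198). Krt75, a type II keratin of the hair follicle companion layer, was between 4.29 and 4.42 in Sfrp1_KO and between 4.47 and 4.84 in WT (limma adjusted p = 0.267), above background on 1 WT array only. Krt14, Krt16, Krt17 and Krt42 are close relatives in sequence and may share probe signal, so their values are uncertain to that extent.

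Among keratins of suprabasal and mucosal epithelia 1 of 14 fell. Krt13, a type I keratin of mucosal epithelia that is also known as a marker of skin tumour progression in mice, stood at 4.91, 4.96 and 4.99 in Sfrp1_KO, against 7.50, 7.74 and 9.32 in WT. The Sfrp1_KO arrays were alike and under background (4.95 ± 0.04, against 8.19 ± 0.99 in WT, SD, n = 3 each). Krt13 fell by 3.23 (SE 0.45, limma adjusted p = 0.0185), or at least 3.12. Krt1 and Krt10, the pair of spinous cells, did not pass. Krt10 stood at 5.15, 4.90 and 5.03 in Sfrp1_KO, against 7.88, 5.92 and 7.63 in WT (-2.12, SE 0.49, limma adjusted p = 0.0889). Krt1 stood at 4.33, 4.49 and 4.45 in Sfrp1_KO, against 7.13, 5.25 and 6.42 in WT (-1.84, SE 0.44, at least 1.2 lower, limma adjusted p = 0.0956). Neither pair member overlapped between genotypes, and WT replicate 2 was the lowest WT array for both. Without that array both were called, Krt10 at -2.73 (limma adjusted p = 0.00166) and Krt1 at -2.35 (limma adjusted p = 0.0139). Neither was called when any other array was left out, with a limma adjusted p of up to 0.285 for Krt10 and 0.275 for Krt1. Krt79, a type II keratin of the hair follicle funnel and sebaceous ducts, stood at 5.42, 5.33 and 5.70 in Sfrp1_KO, against 6.49, 6.08 and 7.08 in WT. It was above background on every array, and its difference was -1.07 (SE 0.25, limma adjusted p = 0.0949). Krt4, Krt77 and Krt78 were at or under background on all 6 arrays although their groups did not overlap, with unadjusted p-values of 0.0206, 0.0355 and 0.0135 and adjusted p from 0.171 to 0.291. Krt24 was above background on WT replicate 3 alone, at 6.15, with 4.51 to 4.78 on the Sfrp1_KO arrays and 4.52 and 4.77 on the other WT arrays.

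The keratins of simple epithelia did not follow that direction as a group, and none of the 5 passed the limma test over all genes, with 3 of them at an unadjusted p under 0.05. Krt8, the type II keratin of simple epithelia, stood at 11.75, 11.27 and 10.05 on the Sfrp1_KO arrays, against 8.98, 8.78 and 6.74 on the WT arrays. Each Sfrp1_KO array lay above each WT array, and replicate 3 was the lowest within both genotypes. The means were 11.02 ± 0.88 in Sfrp1_KO and 8.16 ± 1.24 in WT (SD, n = 3 each), with a difference of 2.86 (SE 0.69, 95% CI 1.19 to 4.53, limma adjusted p = 0.101). Krt18, its type I partner, stood at 7.88, 7.54 and 7.20 in Sfrp1_KO, against 7.56, 7.45 and 6.38 in WT. The groups overlapped, and the difference was 0.41 (SE 0.34, 95% CI -0.41 to 1.24, limma adjusted p = 0.725). Krt20, a type I keratin of intestinal and urothelial surface cells and of Merkel cells, stood at 6.45, 7.82 and 8.50 in Sfrp1_KO, against 5.06, 4.65 and 5.37 in WT, where it was above background on 1 array. The Sfrp1_KO arrays differed by about 2 units and all lay above the WT arrays, with a difference of 2.56 (SE 0.51, 95% CI 1.34 to 3.78, limma adjusted p = 0.0544). Krt19, a type I keratin of simple epithelia and of follicle stem cells, stood at 4.59, 4.34 and 4.61 in Sfrp1_KO, against 6.72, 5.44 and 4.84 in WT (-1.16, SE 0.45, at least 0.60 lower, limma adjusted p = 0.305). It had no overlap between genotypes, though WT replicate 3 was barely above background. Krt7, a type II keratin of glands and ducts, stayed near background, at 5.07, 4.91 and 5.18 in Sfrp1_KO and 5.30, 5.07 and 5.10 in WT, with overlap (-0.10, SE 0.11, limma adjusted p = 0.800).

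Some calls were lost when an array was left out. Krt5, Krt14 and Krt17 stayed called whichever array was omitted, with a largest limma adjusted p of 0.00204, 0.0159 and 0.0288. Krt16 was not called without Sfrp1_KO replicate 1, 2 or 3 (adjusted p = 0.0651, 0.0816 and 0.0546), nor was Krt13 (0.0785, 0.0922 and 0.0617). Their differences hardly moved there, to between -8.30 and -8.19 for Krt16 and between -3.25 and -3.21 for Krt13. The WT arrays had the larger SD for 14 of the 16 named keratins, Krt16 and Krt13 among them. The limma fit takes a common variance for both genotypes, so an unequal spread is not allowed for. Krt20 was called without Sfrp1_KO replicate 1, its lowest Sfrp1_KO array (3.13, limma adjusted p = 0.0181), with dim features left out (adjusted p = 0.0374) and with trend and robust options in limma (adjusted p = 0.0336). Krt8 was called when quantile normalization was repeated (3.04, limma adjusted p = 0.0394) and when arrays were weighted (3.39, adjusted p = 0.0415), and stayed uncalled whichever array was omitted (adjusted p 0.104 to 0.316). Without moderation of the variances Krt5 alone was called, and the adjusted p was 0.0663 for Krt14, 0.0915 for Krt17, 0.143 for Krt16 and 0.154 for Krt13.

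**Figure D2:**
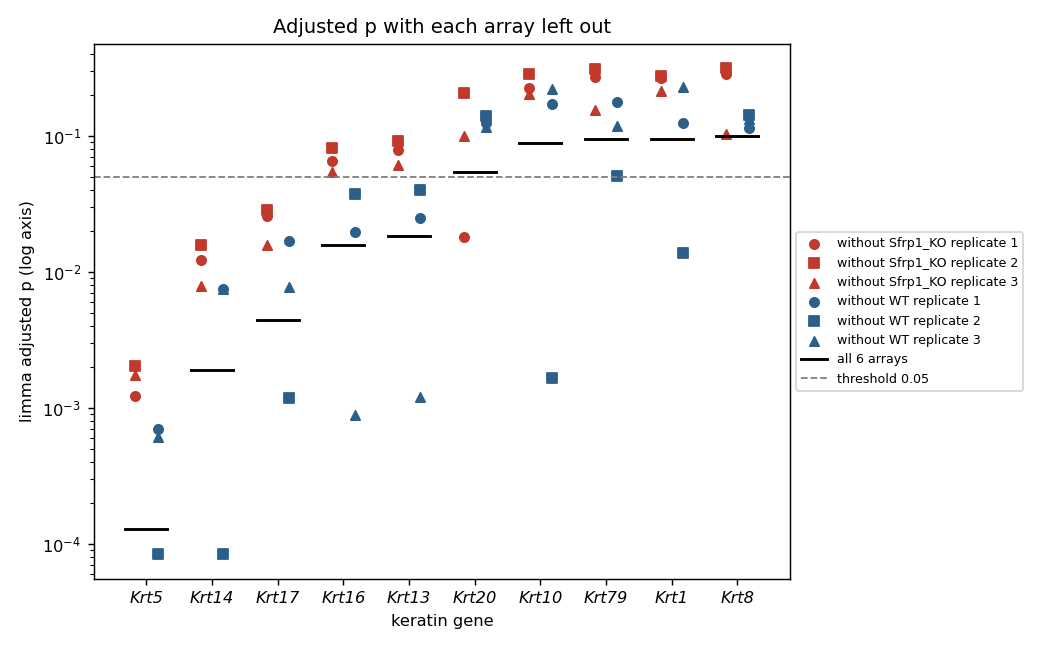
Limma adjusted p (vertical axis, log scale) of 10 keratin genes with all 6 arrays (black line) and with each array left out (points by genotype and replicate); the dashed line is 0.05. Krt5, Krt14 and Krt17 stay under the line in every case, Krt16 and Krt13 cross it when any Sfrp1_KO array is left out, and Krt10 and Krt1 drop under it without WT replicate 2.

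For 6 pairs of keratins the signals were subtracted within each array. The zero of such a value has no meaning, because probe sets differ in brightness, and only its shift between genotypes was compared. Krt5 minus Krt14 was 0.13, 0.08 and -0.14 in Sfrp1_KO, against 3.01, 3.95 and 3.00 in WT, a shift of -3.29. Krt8 minus Krt18 was 3.86, 3.74 and 2.85 in Sfrp1_KO, against 1.42, 1.32 and 0.36 in WT, a shift of 2.45. The arrays of the genotypes did not overlap in either pair. Krt1 minus Krt10 was -0.82, -0.41 and -0.58 in Sfrp1_KO, against -0.75, -0.67 and -1.21 in WT, with overlap and a shift of 0.28. The exact two-sided permutation p was 0.1 for the Krt5 and the Krt8 pair, the smallest that 3 arrays against 3 allow, and 0.3 for Krt1 and Krt10. After Benjamini-Hochberg adjustment over the 6 pairs these were 0.15, 0.15 and 0.36, so no shift passed. The remaining pairs were Krt16 minus Krt17 (shift -2.56, exact p = 0.1), Krt14 minus Krt15 (-6.24, exact p = 0.1) and Krt8 minus Krt20 (0.30, exact p = 0.9). The scale of the values is not established, so neither is the size of these shifts. Krt16, Krt17 and Krt1 were under background on every Sfrp1_KO array and Krt10 on 2, so the shifts of Krt16 minus Krt17 and of Krt1 minus Krt10 hold no measured Sfrp1_KO level.

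**Figure D3:**
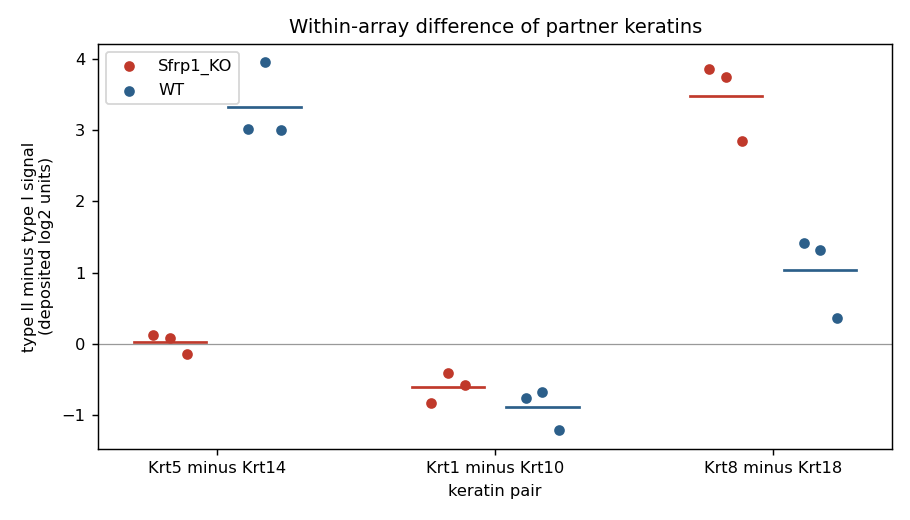
Type II minus type I signal within each array (vertical axis, deposited log2 units) for 3 keratin pairs, with a point for each array and lines at the means of Sfrp1_KO and WT. The Sfrp1_KO arrays lie under the WT arrays for Krt5 minus Krt14 (-0.14 to 0.13 against 3.00 to 3.95), over them for Krt8 minus Krt18 (2.85 to 3.86 against 0.36 to 1.42), and overlap them for Krt1 minus Krt10, where Krt1 was under background on every Sfrp1_KO array.

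The 20 hair keratins, 8 of the inner root sheath and 12 of the hair shaft, showed no called gene and none at an unadjusted p under 0.05 by limma. Their signals ran from 3.79 to 5.17 in Sfrp1_KO and from 3.82 to 5.37 in WT, and 19 of the 20 were at or under background on every array. Krt27, a type I keratin of the inner root sheath, was the exception, at 4.93, 5.06 and 5.17 in Sfrp1_KO and 5.11, 5.18 and 5.37 in WT (-0.17, SE 0.11, limma adjusted p = 0.604). The other members of the inner root sheath set were Krt25, Krt26 and Krt28 with the type II genes Krt71, Krt72, Krt73 and Krt74, the last a transcribed pseudogene in the RefSeq table. Those of the shaft were Krt31, Krt32, Krt33a, Krt33b, Krt34, Krt35, Krt36, Krt39 and Krt40 with Krt82, Krt84 and Krt86. The remaining keratins, Krt2, Krt9, Krt12, Krt23, Krt76, Krt80, Krt88 and Krt222, had differences between -0.27 and 0.11 and none was called.

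The 4 called type I genes are among the last 8 of their cluster. In the RefSeq order Krt13, Krt15, Krt19, Krt9, Krt14, Krt16, Krt17 and Krt42 end the chromosome 11 cluster, and 7 of these 8 were lower on every Sfrp1_KO array than on any WT array, as were 10.8% of all genes. The stretch was delimited by where the calls lie. Krt9, a keratin of palm and sole skin, was the exception, under background on all arrays (difference 0.06). Krt10 and Krt20, which differed in opposite directions (-2.12 and 2.56), are parted only by Krt12 in that order. On chromosome 15 Krt5 alone was called among the members. Krt6a and Krt6b lie between Krt75 and Krt5, but their shared feature was left out, so they were not tested. The members nearest to Krt5 on either side, Krt71 and Krt75, differed by -0.12 and -0.32. Krt8 and Krt18 are next to each other at the end of that cluster, with differences of 2.86 and 0.41.

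**Figure D4:**
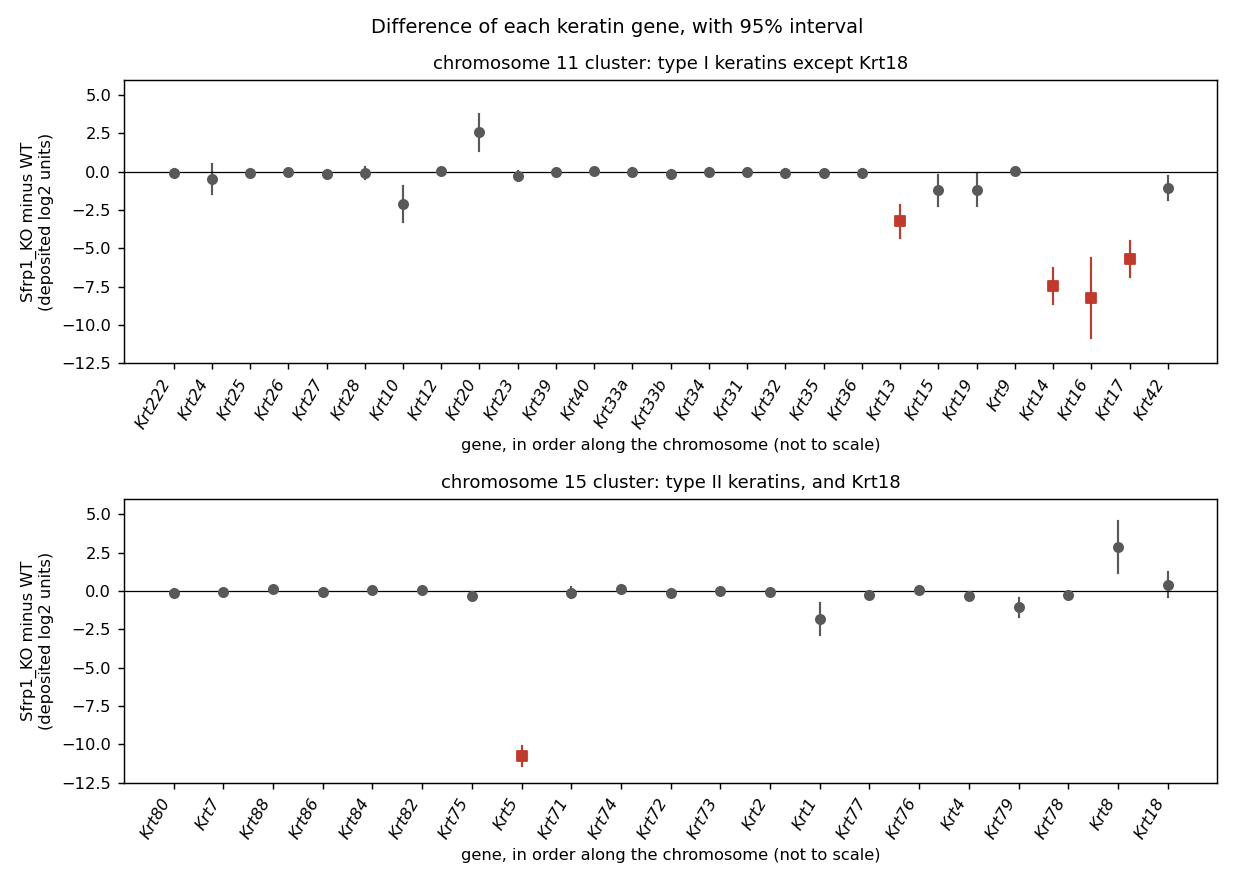
Difference of each of the 48 keratin genes (vertical axis, Sfrp1_KO minus WT, deposited log2 units) with its 95% interval, in gene order along chromosomes 11 (upper panel) and 15 (lower panel), not to scale. Red squares are the 5 called genes, grey circles the others. The type I calls lie in the last stretch of the upper panel, and Krt5 is the only call in the lower one.

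Of the 48 keratins, 6 were above background on all Sfrp1_KO arrays and 15 on all WT arrays. On a single array 33.2 to 35.0% of all genes were above background in Sfrp1_KO and 34.5 to 42.5% in WT. WT replicate 3 had the lowest background level (4.82), and Krt19 stood at 4.84 there. Among the 16 keratins named with all values, WT replicate 3 was the highest WT array for 9, including Krt16, Krt13 and Krt15. It was the lowest for 3, namely Krt8, Krt18 and Krt19. WT replicate 2 was the lowest WT array for 9 and the highest for none.

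Of 15 measured genes that anchor or bundle keratin filaments 4 fell and none rose by limma, where 1.45% of all genes fell and 1.83% rose. At an unadjusted p under 0.05 there were 5 lower and 1 higher, against 7.54% and 6.84% of all genes. Desmoplakin (Dsp), which ties keratins to desmosomes, stood at 5.07, 5.17 and 5.12 in Sfrp1_KO, against 10.67, 10.59 and 11.62 in WT (-5.84, SE 0.27, limma adjusted p = 0.000527). The plakophilin gene Pkp1 was under background on each Sfrp1_KO array and at least 3.78 lower (-4.22, SE 0.18, limma adjusted p = 0.000440). Plakoglobin (Jup) differed by -3.04 (SE 0.13, limma adjusted p = 0.000440) and Pkp3 by -1.01 (SE 0.09, limma adjusted p = 0.00539). These 4 encode parts of desmosomes, and so do Pkp2 (-0.11, limma adjusted p = 0.818), Ppl (-0.18, adjusted p = 0.661) and Evpl (-0.24, adjusted p = 0.229), which did not pass. Ppl was above background on every array, and Pkp2 and Evpl on none. Plectin (Plec), which links keratins to hemidesmosomes and to other filaments, was at 6.88 to 7.07 in Sfrp1_KO and 6.68 to 7.20 in WT (limma adjusted p = 0.959). Dystonin (Dst), whose epithelial form does so in basal cells, was at 6.15, 6.73 and 6.20 in Sfrp1_KO and 5.85, 5.54 and 5.75 in WT (0.64, limma adjusted p = 0.139). The median of the 15 was -0.11, but 8 of them were at or under background on every array. Besides Pkp2 and Evpl these were Flg, Flg2, Tchh, Tchhl1, Rptn and Hrnr.

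Of 29 measured regulators of keratin genes and epithelial state 4 fell and 1 rose by limma, with a median of -0.38. Over all genes 1.45% fell and 1.83% rose. At an unadjusted p under 0.05 there were 13 lower and 2 higher, against 7.54% and 6.84% of all genes. The genotypes did not overlap for 15 lower and 2 higher regulators, against 10.8% and 9.1% of all genes. Of the 29, 8 were at or under background on every array. Trp63, the master regulator of stratified epithelia that drives Krt5 and Krt14, stood at 4.91, 4.78 and 4.77 in Sfrp1_KO, against 7.29, 7.22 and 7.17 in WT. The Sfrp1_KO arrays were all under background, and Trp63 fell by 2.41 (SE 0.08, limma adjusted p = 0.000196), or at least 2.16. The epithelial splicing factor genes Esrp1 (-2.66, at least 2.18 lower, limma adjusted p = 0.00183) and Esrp2 (-1.15, at least 0.89 lower, limma adjusted p = 0.00394) fell, and so did Klf5, a factor of proliferating basal cells (-1.62, at least 1.43 lower, limma adjusted p = 0.0197). All 3 were under background on every Sfrp1_KO array. Prdm1, a repressor of transcription with a role in keratinocyte differentiation, rose, at 5.86, 5.77 and 6.09 in Sfrp1_KO, against 4.72, 4.75 and 4.54 in WT (1.24, SE 0.11, limma adjusted p = 0.00523). Its WT arrays were all under background, so it was at least 0.95 higher. The AP-2 factor gene Tfap2a, which was bright in both genotypes, was at 7.56 to 7.82 in Sfrp1_KO and 7.79 to 8.16 in WT (limma adjusted p = 0.503). Sox9, a factor of follicle stem cells, was at 7.60 to 8.35 in Sfrp1_KO and 7.40 to 7.91 in WT (limma adjusted p = 0.60).

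Of 16 genes of other intermediate filaments Vim alone was called, where 3.28% of all genes were called. Vimentin is the filament protein of mesenchymal cells, and its gene stood at 11.18, 11.89 and 10.49 in Sfrp1_KO, against 4.81, 5.72 and 5.62 in WT (5.80, SE 0.40, limma adjusted p = 0.00205). The median of the 16 was 0.00, and Des and Gfap, filament genes of muscle and astroglia, were under background on all arrays.

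Markers of other cell types were read on the same arrays, where 1.45% of all genes were called lower and 1.83% higher. At an unadjusted p under 0.05 these shares were 7.54% lower and 6.84% higher. Of 16 fibroblast markers Pdgfrb (3.72) and Thy1 (0.89) rose and Fbln1 (-1.10, at least 0.78 lower) fell by limma, with 5 higher and 3 lower at an unadjusted p under 0.05. Their mean level was 5.84 to 6.25 over the Sfrp1_KO arrays and 5.49 to 6.45 over the WT arrays. WT replicate 3 stood apart in several of them. Dcn was at 10.18, 11.15 and 10.11 in Sfrp1_KO, against 6.54, 6.58 and 10.56 in WT, and Postn at 6.02, 6.46 and 6.20 in Sfrp1_KO, against 8.27, 8.74 and 11.71 in WT. Krt16 and Krt13 were also highest on WT replicate 3 among the WT arrays. Without that array Krt16 differed by -6.87 (limma adjusted p = 0.000883) and Krt13 by -2.67 (adjusted p = 0.00119). Whether fibroblast RNA has a part in the keratin differences was not tested.

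Of 19 leukocyte and macrophage markers none was called by limma, but 8 were higher on every Sfrp1_KO array than on any WT array, and none lower. Over all genes 9.1% were higher in that way. All 8 had an unadjusted p under 0.05, where 6.84% of all genes were higher. They were Lyz2, Laptm5, Tyrobp, C1qa, C1qb, C1qc, Csf1r and Itgam, with Csf1r and Itgam under background on all arrays. Their list had a mean level of 4.63 to 5.02 in Sfrp1_KO and 4.44 to 4.49 in WT. Ptprc, which all leukocytes carry, was under background on all arrays. Lyz2 (1.98, adjusted p = 0.0941) and Laptm5 (0.75, at least 0.34, adjusted p = 0.10) had the smallest p of that list. Of 11 endothelial, 8 melanocyte and Schwann cell, and 10 muscle and pericyte markers none was called, with 2 higher, 1 higher and 1 lower at an unadjusted p under 0.05. Mean levels of the endothelial list were 4.45 to 4.63 in Sfrp1_KO and 4.28 to 4.76 in WT, of the melanocyte and Schwann list 4.42 to 4.62 in Sfrp1_KO and 4.31 to 4.58 in WT, and of the muscle list 4.60 to 4.77 in Sfrp1_KO and 4.67 to 4.90 in WT. Merkel cells also make Krt20 and Krt8, neither of which passed the test. Of 6 further Merkel cell markers 1 rose, Sox2 (9.32, 9.91 and 9.34 in Sfrp1_KO, against 6.97, 7.27 and 8.22 in WT, limma adjusted p = 0.0316). Sox2 was well above background in both genotypes. Atoh1, Isl1, Chga and Rab3c of that list were under background on all arrays, and Piezo2 did not pass (0.31, limma adjusted p = 0.628). The mean level of the list, which includes Sox2, was 5.19 to 5.27 in Sfrp1_KO and 4.68 to 4.92 in WT. Smallest p in the endothelial list belonged to Flt1 (0.70, at least 0.45, adjusted p = 0.0817) and Cdh5, at 7.15, 6.69 and 4.88 in Sfrp1_KO and 4.22, 4.36 and 5.16 in WT (adjusted p = 0.264). In the melanocyte and Schwann list Mitf (0.50, adjusted p = 0.221) and Mlana (-0.20, adjusted p = 0.604) had the smallest p, and in the muscle and pericyte list Tagln (-0.39, adjusted p = 0.116) and Cnn1 (-0.10, adjusted p = 0.653). The part of other cells in the keratin differences was not tested.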

How the data were processed

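RNA of sorted cancer stem cells was measured on 6 Affymetrix MTA 1.0 arrays, 3 per genotype. Per the submitters' processing notes the authors made the deposited log2 signals with RMA in Affymetrix Expression Console. Versions, summarisation level and probe build were not given in the sources used here. Of 72688 features 30604 carry 1 gene symbol in the platform annotation. Gene identifiers gave current symbols from RefSeq (GRCm38.p6), and 827 changed, none of them that of a member. The feature with the highest mean was kept for each of 30142 genes, with no filter on dim ones. No arrays held identical values, and no batch is labelled.

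The test between genotypes was limma's moderated one (limma 3.58.1, R 4.3.3), two-sided, with Benjamini-Hochberg adjustment over all genes and a threshold of 0.05. Partner keratins were compared by exact permutation. On simulated data with 30142 genes the procedure found 31 of 50 genes with a true change of 1 unit, 40 at 2 units, 48 at 3 units and 47 at 4 units, and made 7 false calls. The changed genes were brighter than the median.

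The members and lists were chosen with earlier results of these data known. Every keratin called, or above background on all 3 arrays of a genotype, was named with all 6 values. Called genes of other lists were named up to 6 per list, or the 2 of smallest p where none was called, with the sort markers and Sfrp1. Other genes named, among them Plec, Dst, Tfap2a, Sox9, Des, Gfap, Pkp2, Ppl, Evpl, Dcn, Postn, Ptprc, Merkel cell genes and dim keratins, were picked once their values had been seen. The alternatives run were a replicate block, omission of dim features, averaging a gene's features, repeated quantile normalization, median centring, weighted arrays, trend and robust options in eBayes, no moderation, a minimum difference of 1 unit, each feature singly, and each array left out.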

Additional observations from a re-analysis of the deposited data

How the results depend on the processing

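Among the 16 named keratins no difference changed sign under any alternative run, but many of the runs could not change it. The replicate block, omission of dim features, averaging or singling of features, eBayes options, no moderation and the minimum difference leave each difference as it was. Nor can leaving out an array reverse a keratin whose genotypes did not overlap. The count of 5 keratins called lower was 1 without moderation of the variances (0 of type I), where Krt5 alone was called, and ran from 3 to 7 with each array left out (2 to 5 of type I, 1 to 2 of type II), 3 without Sfrp1_KO replicate 1, 2 or 3 and 7 without WT replicate 2. The count of 0 called higher was 1 with the replicate number as a block, after quantile normalization once more and with array weights, where it was the type II gene Krt8, and 1 with dim features left out and with trend and robust options, where it was the type I gene Krt20. With each array left out it ran from 0 to 1 (1, Krt20, without Sfrp1_KO replicate 1), type I from 0 to 1 and type II 0 to 0. The median difference of -0.09 was -1.06 with dim features left out, which kept 20 keratins, and ran from -0.15 to -0.04 with each array left out. Deviations of same-numbered arrays correlated at 0.18, -0.08 and 0.15, and those of arrays with unlike numbers at -0.29 to 0.21. Deviations from means of 3 arrays are not independent, so these values do not settle whether the replicate numbers pair the arrays. With the replicate block 5 keratins were called lower and 1 higher (Krt8, 2.86, limma adjusted p = 0.0177), and over all genes 238 lower and 297 higher, against 437 lower and 552 higher without it. Arrays limit the precision, and keratins under background have no measured level.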
